A study of Sus scrofa with 6 samples.

Results

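In the abdominal aorta of pigs fed fat, cholesterol and fructose in excess (the HFCF group), 12 of 19 cytosolic aminoacyl-tRNA synthetase mRNAs had a lower mean log2 level than in pigs fed normal chow (the NC group), while 13 of 15 mitochondrial ones had a higher one. Of all tested genes 65.7% were higher and 34.3% lower, and the median of the mitochondrial enzymes was only 0.05 above that of all genes on the log2 scale. It turned negative under 1 of 3 other scalings of the libraries. Among the genes whose change passed the test, SARS1 and VARS1 of the cytosol fell. Leaving out any 1 of the 6 pigs took VARS1 past the threshold, and leaving out any of 4 did so for SARS1. YARS2, RARS2 and PARS2 of the mitochondrion rose with the deposited values but passed under none of the 3 other scalings. The 34 genes described here were the protein-coding rows, out of 30477 genes, whose symbol is a capital letter followed by ARS1 or ARS2, together with EPRS1 and FARSA. Of these, 19 encode the enzymes of the cytosol and 15 the enzymes of the mitochondrion, and all 34 passed the filter on low values. The symbols FARSB, SARS2 and FARS2 were found in no row, but 3 rows without a symbol are described as these enzymes and are given apart. All pigs were male Wuzhishan miniature pigs that received either diet for 6 months, 3 pigs in the NC group and 3 in the HFCF group, with 1 library from each pig. The HFCF diet was the chow with added shortening oil, egg yolk powder, cholesterol and fructose. The labels give an age of 3 to 4 months. The methods give an older age already at purchase, before the 6 months of feeding, so by the methods the pigs were older still when sampled. Whole vessel tissue was sequenced, so each value is a mixture over the cells of the wall.

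Aminoacyl-tRNA synthetases join each amino acid to its own tRNA, which the ribosome then reads against the codons of an mRNA. Animal cells keep separate sets, a cytosolic set that serves the translation of nuclear genes and a mitochondrial set, encoded in the nucleus and imported, that serves the few mRNAs of the mitochondrial genome. GARS1 and KARS1 are exceptions in which 1 gene makes the enzyme for both places, and EPRS1 joins glutamyl and prolyl enzymes in 1 chain. Several cytosolic genes of this family are known targets of ATF4, the transcription factor of the amino acid response, and WARS1 is known as an interferon-gamma-induced gene.

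Levels were given as FPKM, the fragments mapped to a gene scaled by its exon length and by the size of the library, which can be compared between genes because they are per length. Group values are mean ± SD over the 3 pigs. Differences were taken on log2(FPKM + 0.1), as HFCF minus NC, and tested with limma over the 15384 genes whose mean reached 0.1 FPKM, and adjusted p is the Benjamini-Hochberg value over all of them. This scale understates the change of genes at low FPKM. The median difference of all tested genes was 0.32 on the log2 scale, so a gene with no difference stood below most others. It was 0.00 after median-ratio scaling, 0.09 after rescaling to TPM and -0.07 after quantile normalization. Read totals were not used here, and low FPKM values put the depth of the libraries at 1.025 to 1.369 times that of the first NC pig. The markers of macrophages and of contractile smooth muscle moved with the diet. The summed level of 10 macrophage markers was 35.4 to 38.9 FPKM in the NC pigs and 427 to 1032 FPKM in the HFCF pigs, highest in the first HFCF pig. Of the 10 markers 9 rose (22.8% of all tested genes did). The summed level of 8 markers of contractile smooth muscle was 15996 to 22763 FPKM in the NC pigs and 8041 to 12941 FPKM in the HFCF pigs. Of the 8 markers 6 fell (6.16% of all tested genes did). ACTA2 and MYH11, which define smooth muscle, were at 3359 FPKM or more and 824 FPKM or more in every pig. The part of this shift in the results below was not tested, and in bulk tissue fewer cells of a type and less RNA per cell cannot be told apart.

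Of the 34 synthetases, 5 rose and 2 fell at an adjusted p under 0.05 in limma, while 22.8% of all tested genes rose and 6.16% fell. The shares among the synthetases were 14.7% and 5.88%. By the study's own thresholds, a ratio of group means above 2 or below 0.5 with an unadjusted p under 0.05, 3 were higher (8.82%, against 20.7% of all tested genes) and 0 were lower (against 4.82%). The 2 sets of enzymes are given apart, and the difference between them was not tested. Among the 19 cytosolic enzymes 1 rose and 2 fell, 12 had a negative difference (34.3% of all tested genes did), and the median was -0.21 on the log2 scale, which is 0.53 below the median of all genes. Among the 15 mitochondrial enzymes 4 rose and 0 fell, 13 had a positive difference (65.7% of all tested genes did), and the median was 0.37, only 0.05 higher than that of all genes. At an unadjusted p under 0.05 in limma, 1 mitochondrial enzyme was lower. The HFCF values lay wholly below the NC values in 10 of 19 cytosolic enzymes (52.6%, against 12.1% of all tested genes) and wholly above them in 5 (26.3%, against 36.1%). For the mitochondrial enzymes these counts were 1 of 15 (6.67%) and 6 of 15 (40.0%).

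**Figure D1:**
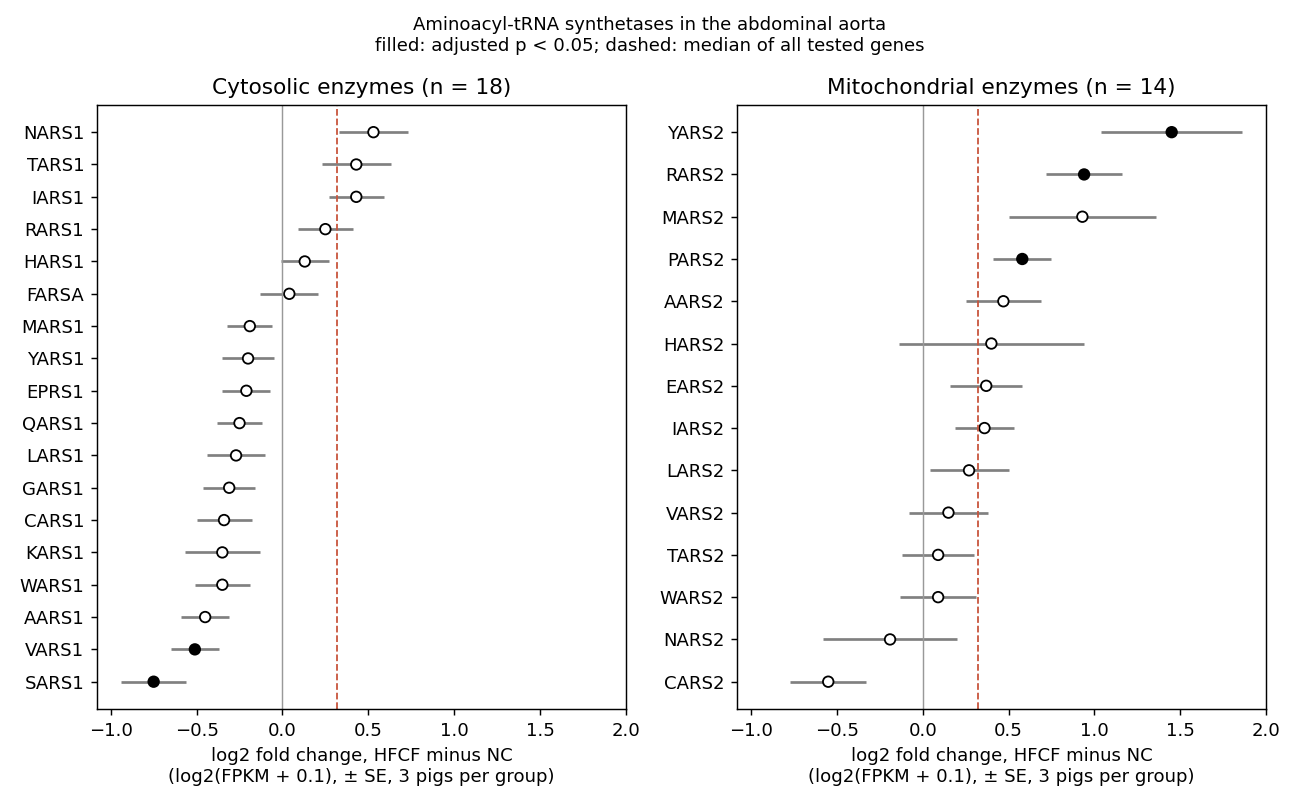
Differences of synthetases on the log2(FPKM + 0.1) scale, HFCF minus NC, with their standard errors, for 18 cytosolic (left) and 14 mitochondrial enzymes (right), 3 pigs per group. Filled points have an adjusted p under 0.05 in limma and the dashed line is the median of all tested genes, 0.32. The cytosolic enzymes drawn reach from -0.75 for SARS1 to 0.53 for NARS1.

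The level of the cytosolic enzymes in NC pigs spanned 4.61 FPKM for TARS1, the threonyl enzyme, to 167 FPKM for KARS1, the lysyl enzyme, with a median of 16.4 FPKM. Below KARS1 stood SARS1 at 69.6 ± 2.48 FPKM, QARS1 at 61.2 ± 5.06 FPKM, AARS1 at 55.9 ± 4.62 FPKM and GARS1 at 34.9 ± 2.66 FPKM, and the values of QARS1 and AARS1 overlapped. The mitochondrial enzymes were lower, from 0.19 FPKM for YARS2 to 9 FPKM for HARS2, with a median of 2.50 FPKM. Summed over its genes, the cytosolic set was 534.9, 620.2 and 532.2 FPKM in the NC pigs and 444.0, 490.4 and 488.2 FPKM in the HFCF pigs. The mitochondrial set summed to 44.94, 42.44 and 58.2 FPKM in the NC pigs and to 57.45, 64.66 and 55.36 FPKM in the HFCF pigs. The groups did not overlap for the cytosolic sum and overlapped for the mitochondrial one. Without GARS1 and KARS1, which serve both compartments, the cytosolic sum was 357.2 to 362.3 FPKM in the NC pigs. In the HFCF pigs it was 311.1 to 326.2 FPKM. HARS2 alone gave 9.98, 3.09 and 13.9 FPKM of the mitochondrial sums in the NC pigs and 9.94, 13.5 and 7.47 FPKM in the HFCF pigs. The ratio of the cytosolic to the mitochondrial sum, which multiplying a library by a factor cannot change, was 11.9, 14.6 and 9.14 in the NC group, against 7.73, 7.58 and 8.82 in the HFCF group. Every HFCF pig lay below every NC pig in this ratio, though the lowest NC value and the highest HFCF value were close.

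SARS1 (ENSSSCG00000006835), the seryl enzyme, which also charges the tRNA of selenocysteine, fell. It had 67.4, 72.3 and 69.0 FPKM in the NC pigs, a narrow range, and 32.3, 52.0 and 42.3 FPKM in the HFCF pigs, lowest in the first of them. The difference was -0.75 (standard error 0.19, adjusted p = 0.0266, limma). It missed the threshold without any of the NC pigs (adjusted p = 0.0774, 0.0781 and 0.063, limma) and without the third HFCF pig (adjusted p = 0.0594), with the difference between -0.91 and -0.57 when any pig was left out. VARS1 (ENSSSCG00000038950), the valyl enzyme, which is known to bind the elongation factor eEF1, had 12.4, 11.9 and 11.3 FPKM in the NC pigs and 7.75, 9.03 and 8.26 FPKM in the HFCF pigs. The groups were well apart, with a difference of -0.51 (standard error 0.14, adjusted p = 0.0365, limma). Leaving out any of the 6 pigs took its adjusted p to between 0.059 and 0.102 in limma, and the difference stayed between -0.56 and -0.45.

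**Figure D2:**
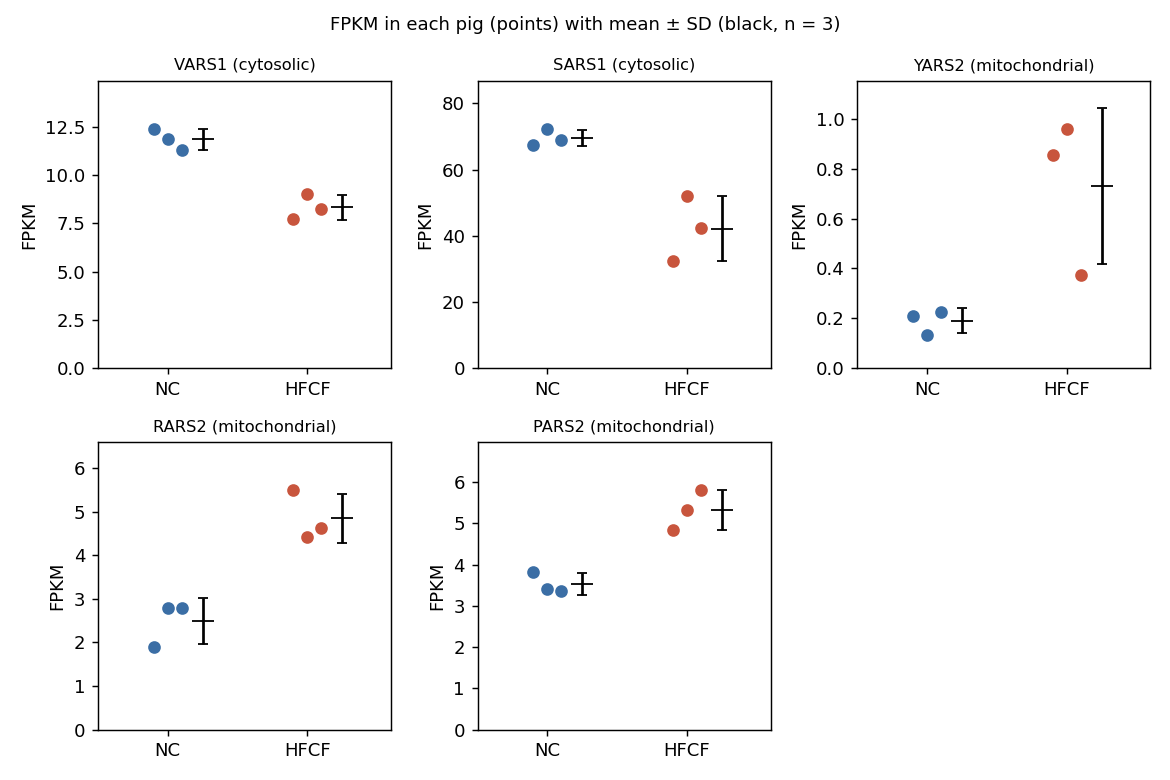
FPKM of 5 synthetases with an adjusted p under 0.05 in limma, in each NC pig (blue) and HFCF pig (red), with mean ± SD over 3 pigs in black and the axis of each panel starting at 0. In each panel the groups do not overlap, and SARS1 and VARS1 are the 2 genes drawn that are lower in the HFCF pigs.

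The other 16 cytosolic enzymes did not pass the test. The largest positive difference among these was that of NARS1 (ENSSSCG00000004542), the asparaginyl enzyme, with 19, 15.3 and 25 FPKM in the NC pigs and 26.8, 29.6 and 27.8 FPKM in the HFCF pigs. The groups came close in the third NC pig, the difference was 0.53 (adjusted p = 0.0811, limma), and without that pig it was 0.72 (adjusted p = 0.0303, limma). IARS1 and TARS1, the isoleucyl and threonyl enzymes, each had a difference of 0.43 with no overlap between the groups. AARS1 (ENSSSCG00000002723), the alanyl enzyme, had 61.1, 54.4 and 52.3 FPKM in the NC pigs and 45.9, 40.6 and 36.7 FPKM in the HFCF pigs. It was lower in each HFCF pig than in any NC pig, with a difference of -0.45 just short of the threshold (adjusted p = 0.055, limma), and without the first HFCF pig the adjusted p was 0.0417 and the difference -0.53. The negative differences of the remaining enzymes reached from -0.35 for KARS1 and WARS1 to -0.19 for MARS1.

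WARS1 (ENSSSCG00000002516), the tryptophanyl enzyme, had 30.5, 24 and 25.6 FPKM in the NC pigs and 21.1, 18.2 and 23.4 FPKM in the HFCF pigs. The HFCF pigs lay just below the NC pigs (difference -0.35, adjusted p = 0.146, limma). Of 9 tested genes known to be induced by interferon gamma 5 rose (22.8% of all tested genes did), among them CXCL10, a chemokine, by 3.31 (adjusted p = 0.00105, limma), and CIITA, the activator of MHC class II genes, by 2.39 (adjusted p = 0.00138, limma). IDO1, an enzyme that breaks down tryptophan, was listed at 0 in all 3 NC pigs and had 0.428, 0.207 and 0.151 FPKM in the HFCF pigs. It is among the 5, but it reached the filter on low values only through the HFCF pigs. IRF8 and GBP2 of the same list had differences of -0.20 (adjusted p = 0.68, limma) and 0.09 (adjusted p = 0.791, limma). The median difference of these 9 genes was 1.41. After median-ratio scaling 4 of them, IDO1 included, passed as higher (13.2% of all tested genes did).

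The cytosolic members of the multi-synthetase complex, in which several enzymes are held together, were described apart from the free enzymes. Of the 8 members 1 rose (12.5%, against 22.8% of all tested genes) and 0 fell (against 6.16%), and at an unadjusted p under 0.05 in limma the counts were 2 and 0. Their median difference was -0.20, or 0.52 below that of all genes. Of the 11 other cytosolic enzymes 0 rose and 2 fell (18.2%), with 1 and 3 at an unadjusted p under 0.05 in limma, and their median was -0.31. The difference between these groups of genes was not tested. EPRS1, the bifunctional enzyme of the complex, was at 14.1 FPKM in each HFCF pig and between 14.9 and 18.1 FPKM in the NC pigs (adjusted p = 0.29, limma). LARS1, which also senses leucine for the growth kinase mTORC1, had a difference of -0.27 (adjusted p = 0.264, limma). Of the scaffold proteins, AIMP1 had a difference of 0.72 (adjusted p = 0.104, limma) and AIMP2 of -0.49 (adjusted p = 0.177, limma), so the point estimates had opposite signs and neither passed the test.

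By the fold of the catalytic domain, which divides the family into unrelated classes, the 9 cytosolic enzymes of class I had a median difference of -0.25 and the 9 of class II 0.04. EPRS1 holds a domain of each class and was left out of both. In the mitochondrial set the 9 enzymes of class I had a median of 0.36 and the 6 of class II 0.43. GARS1 and KARS1, which supply both compartments, had differences of -0.31 (adjusted p = 0.173, limma) and -0.35 (adjusted p = 0.269, limma). KARS1 reached 222 FPKM in the second NC pig against 136 and 143 FPKM in the other NC pigs, and its HFCF values of 109, 134 and 142 FPKM overlapped with these.

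Among the mitochondrial enzymes, YARS2 (ENSSSCG00000027429), the tyrosyl enzyme, had 0.210, 0.134 and 0.227 FPKM in the NC pigs and 0.856, 0.959 and 0.374 FPKM in the HFCF pigs. The third HFCF pig was much nearer to the NC pigs than the others. The difference was 1.45 (standard error 0.41, adjusted p = 0.0372, limma), and it depends on the pseudocount because the values are low, with 1.81 at a pseudocount of 0.01 and 0.52 at 1. Leaving out any pig but the third HFCF pig took its adjusted p to between 0.0679 and 0.108 in limma.

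RARS2 (ENSSSCG00000004303), the arginyl enzyme, had 1.89, 2.79 and 2.80 FPKM in the NC pigs and 5.49, 4.41 and 4.63 FPKM in the HFCF pigs. The groups were clearly apart, with a difference of 0.94 (standard error 0.22, adjusted p = 0.0211, limma). When pigs were left out, this p was 0.0572 without the first NC pig and 0.0579 and 0.0517 without the first or second HFCF pig, in limma. PARS2 (ENSSSCG00000003843), the prolyl enzyme, had 3.83, 3.40 and 3.36 FPKM in the NC pigs and 4.83, 5.32 and 5.80 FPKM in the HFCF pigs. Both groups were tight, and the difference was 0.58 (standard error 0.17, adjusted p = 0.0426, limma). Without any pig but the first HFCF pig its adjusted p was between 0.0755 and 0.113 in limma, and its difference relative to all genes was 0.25.

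MARS2, the methionyl enzyme, had 0.858, 0.664 and 0.753 FPKM in the NC pigs and 0.751, 2.51 and 1.86 FPKM in the HFCF pigs. Only the first HFCF pig lay within the NC range. The difference of 0.93 did not pass the test (adjusted p = 0.147, limma), and without that pig it was 1.40 (adjusted p = 0.0218, limma). The mitochondrial enzyme with the largest negative difference was CARS2 (ENSSSCG00000031757), the cysteinyl enzyme, with 6.39, 6.93 and 9.11 FPKM in the NC pigs and 4.07, 4.96 and 6.21 FPKM in the HFCF pigs. Its highest HFCF value lay just under its lowest NC value, and the difference of -0.55 did not pass the test (adjusted p = 0.106, limma). HARS2, the histidyl enzyme, varied most among the NC pigs, with 9.98, 3.09 and 13.9 FPKM, and its difference changed sign without the second NC pig. HARS1 and HARS2 are closely related in sequence, and the deposited values cannot tell how fragments common to both were assigned. The other 8 mitochondrial enzymes had differences between -0.19 for NARS2 and 0.47 for AARS2.

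Setting the cytosolic against the mitochondrial enzyme of the same amino acid gave 15 pairs, with EPRS1 used for both glutamate and proline. A factor applied to a whole library cancels in these ratios, but quantile normalization does not. The cytosolic enzyme had the higher FPKM in all 6 pigs in 13 pairs. The exceptions were isoleucine, where IARS1 was at 0.827, 0.796 and 0.553 of IARS2 in the NC group, against 0.728, 0.699 and 0.824 in the HFCF group, and cysteine, where the order varied. In 11 of the 15 pairs the mean log2 ratio was lower in the HFCF group, and the median shift over the pairs was -0.56. The shifts were not tested. Taken as the difference between the 2 enzymes' log2(FPKM + 0.1) differences, the median over the pairs was -0.54 with the deposited values and -0.25 after quantile normalization, with 11 and 10 pairs below 0. In that measure alanine moved from -0.92 to -0.41, glutamate from -0.58 to -0.25 and tryptophan from -0.44 to -0.09.

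The largest shift was that of tyrosine, where YARS1 was 90.6, 135 and 63.8 times YARS2 in the NC pigs and 17.1, 16.1 and 38.8 times in the HFCF pigs. For alanine, AARS1 was 39.0, 32.4 and 28.9 times AARS2 in the NC pigs and 17.5, 15.8 and 18.7 times in the HFCF pigs, a shift of -0.94 (standard error 0.15). The groups did not overlap in either pair. Proline, with EPRS1 over PARS2, shifted by -0.80 (standard error 0.16), and glutamate, with EPRS1 over EARS2, by -0.60 (standard error 0.10). Threonine and asparagine went the other way, with shifts of 0.35 (standard error 0.15) and 0.75 (standard error 0.46).

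**Figure D3:**
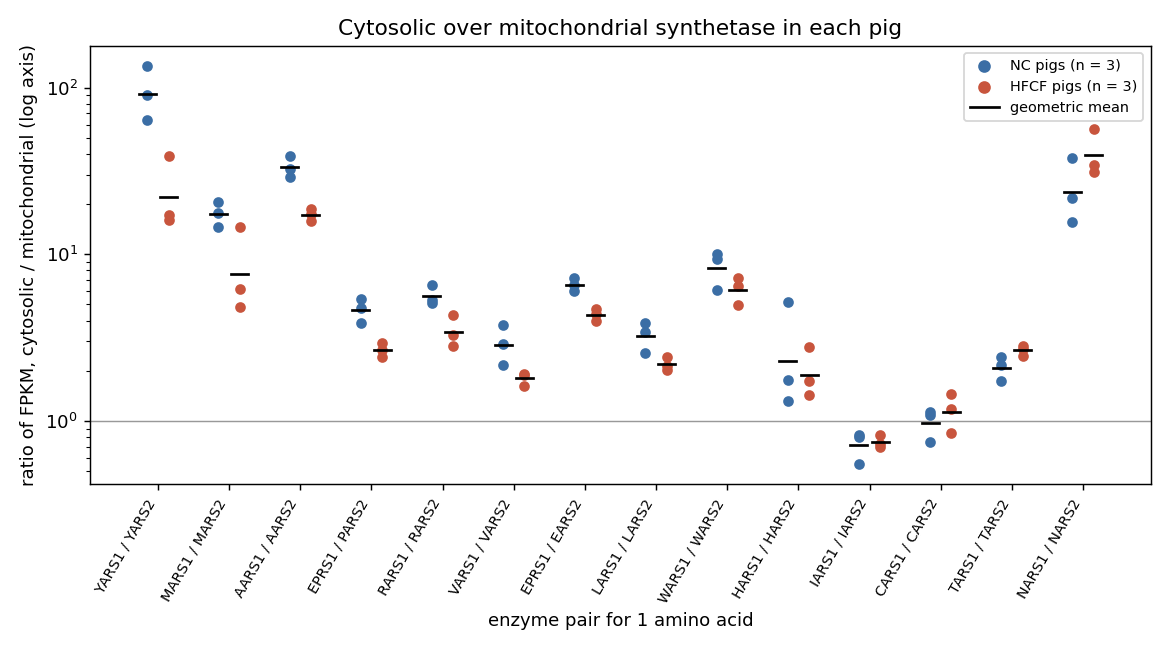
Ratio of FPKM of the cytosolic to the mitochondrial synthetase for the same amino acid, on a log axis, in each NC pig (blue) and HFCF pig (red), with the geometric mean of each group as a black bar. Pairs are ordered by the shift between groups, from tyrosine at -2.06 on the log2 scale to asparagine at 0.75.

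The counts depended on how the libraries were scaled. After median-ratio scaling, 11 of the 19 cytosolic enzymes fell (57.9%, against 12.8% of all tested genes) and 1 rose. The 11 were SARS1, VARS1, AARS1, WARS1, CARS1, GARS1, LARS1, QARS1, EPRS1, YARS1 and MARS1. After rescaling to TPM 7 fell (36.8%, against 9.93%), and after quantile normalization 5 fell (26.3%, against 11.6%). In the mitochondrial set 1 rose after median-ratio scaling and 1 after rescaling to TPM, against 13.2% and 14.5% of all genes, and 0 rose after quantile normalization, against 11.4%. CARS2 fell under all 3 scalings, with an adjusted p of 0.0266, 0.0462 and 0.0347 in limma. The rises of YARS2, RARS2 and PARS2 did not pass the test under any of these 3 scalings.

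**Figure D4:**
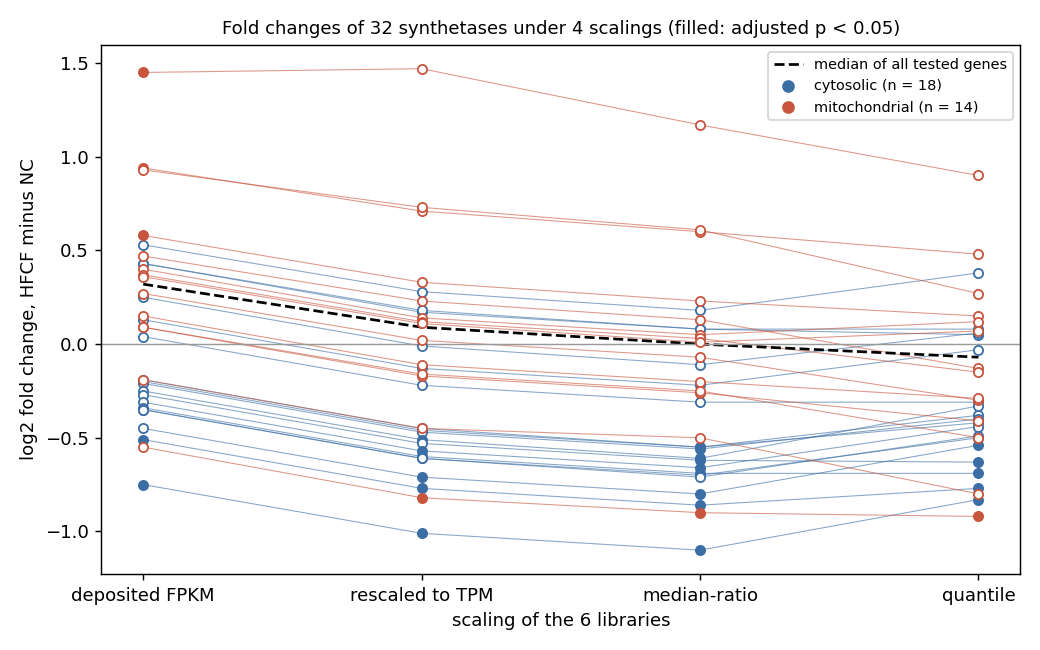
Differences of 32 synthetases on the log2 scale, HFCF minus NC, from the deposited FPKM and after 3 scalings, with 1 line per gene, cytosolic in blue and mitochondrial in red. Filled points have an adjusted p under 0.05 in limma. The dashed median of all genes goes from 0.32 to -0.07, and the cytosolic enzymes that fell rise in number from 2 to 11 with median-ratio scaling.

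The 3 rows that carry only a description were read beside the named ones. The row described as the mitochondrial seryl enzyme SARS2 (ENSSSCG00000002972) was listed at 0 in 2 NC pigs and at 0.00266 FPKM in the second NC pig, and had 0.997, 0.709 and 0.19 FPKM in the HFCF pigs. Its NC mean was 0.000886 FPKM, so this row reached the filter of 0.1 FPKM only through the HFCF pigs, where it was high. Its difference passed the test (adjusted p = 0.0132, limma), but its size depends on the pseudocount, from 0.67 to 5.6 over the alternatives. Its adjusted p was 0.0502 without the first NC pig and 0.0608 with no filter on low values, in limma. The rows described as FARS2, the mitochondrial phenylalanyl enzyme, and FARSB, the beta subunit of the cytosolic one, had differences of -0.07 (adjusted p = 0.849, limma) and -0.14 (adjusted p = 0.522, limma). FARSA, the alpha subunit that pairs with FARSB, had a difference of 0.04 (adjusted p = 0.869, limma).

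The partners of the synthetases in translation were read from lists written with earlier results of these data known. Of all tested genes 22.8% rose and 6.16% fell, which is the background for each count here. Of 9 factors of mitochondrial translation 3 rose, with a median difference of 0.64, or 0.32 above all genes. GFM2, which helps to recycle mitochondrial ribosomes, had 0.318, 0.276 and 0.313 FPKM in the NC pigs and 1.66, 1.12 and 1.72 FPKM in the HFCF pigs, a difference of 1.97 (adjusted p = 0.0043, limma). The release factor MTRF1 rose by 1.08 and the initiation factor MTIF2 by 0.81. MTIF2 did not pass after median-ratio scaling (adjusted p = 0.131, limma). TUFM, the elongation factor that carries charged tRNA, had a difference of -0.16 (adjusted p = 0.58, limma). Of 9 tested enzymes related to the synthetases 4 rose, with a median of 0.82. These were DTD2, which removes wrongly attached amino acids, by 1.21, and TRNT1, which adds the CCA end to tRNA, by 1.10. PSTK rose by 1.03 (adjusted p = 0.0474, limma) and SEPSECS by 0.82 (adjusted p = 0.0458, limma). PSTK and SEPSECS make selenocysteine on the tRNA that SARS1 charges with serine. After median-ratio scaling only TRNT1 of these 4 passed (adjusted p = 0.0435, limma). QRSL1 and GATB, subunits of the enzyme that makes mitochondrial glutaminyl-tRNA in the absence of a mitochondrial glutaminyl synthetase, had differences of 0.49 (adjusted p = 0.108, limma) and -0.11 (adjusted p = 0.789, limma).

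The mRNAs of the mitochondrial genome, a list added after its values had been seen, were higher in the HFCF group. Of 13 of them 11 rose (22.8% of all tested genes did), with a median difference of 1.41. Their sum was 12725, 19456 and 12440 FPKM in the NC pigs and 44726, 43815 and 29014 FPKM in the HFCF pigs. The third HFCF pig had the lowest sum of its group, and all HFCF pigs lay above all NC pigs. The rise was unequal, and ND3 had 101 ± 13.6 FPKM in the NC pigs and 1938 ± 412 FPKM in the HFCF pigs. The differences of the single mRNAs reached from 0.79 for COX1 to 4.24 for ND3. COX1, the largest of them in every NC pig, had 4535, 7038 and 4364 FPKM in the NC pigs and 11159, 9733 and 6602 FPKM in the HFCF pigs, and its difference of 0.79 did not pass the test (adjusted p = 0.113, limma). Genes lie on both strands of this genome, and whether strand was used in counting is not given in the sources used here.

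In the cytosol, EEF2, the translocation factor, fell from 1182 ± 148 to 737 ± 130 FPKM, a difference of -0.69 (adjusted p = 0.044, limma), and EEF1B2, the exchange factor of eEF1, rose by 0.61 (adjusted p = 0.0432, limma), which became 0.25 (adjusted p = 0.307, limma) after median-ratio scaling. They were the 2 of 5 tested elongation factors that passed, and the median of the 5 was 0.03. Of 13 tested amino acid transporters 3 rose and 2 fell, against 22.8% and 6.16% of all tested genes, so the share that rose was near the background. Their median was 0.44, or 0.11 above that of all genes. SLC7A5, which imports large neutral amino acids, had 4.28, 3.92 and 4.43 FPKM in the NC pigs and 1.95, 1.53 and 1.14 FPKM in the HFCF pigs, a difference of -1.42 (adjusted p = 0.00692, limma). SLC7A1, an importer of arginine and lysine, also had a difference of -1.42 (adjusted p = 0.00302, limma). The transporter SLC7A7, which exchanges cationic for neutral amino acids, rose by 3.17 (adjusted p = 0.00128, limma), and SLC38A2, an importer of small neutral amino acids, by 1.33 (adjusted p = 0.00594, limma).

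Of 15 genes of the amino acid response 2 rose, a share below the 22.8% of all tested genes. They were CEBPB by 1.67 (adjusted p = 0.00641, limma) and ATF5 by 1.24 (adjusted p = 0.0296, limma), both transcription factors. ATF4 had 102, 113 and 91.6 FPKM in the NC pigs and 86.3, 92.6 and 120 FPKM in the HFCF pigs, and these ranges overlapped (difference -0.04, adjusted p = 0.865, limma). ASNS, the asparagine synthetase that is a standard target of ATF4, had 7.69, 8.60 and 7.69 FPKM in the NC pigs and 5.53, 10.7 and 9.10 FPKM in the HFCF pigs (difference 0.03, adjusted p = 0.944, limma). The median of the 15 genes was 0.35, which is 0.03 above that of all tested genes. After median-ratio scaling, 13.2% of all tested genes passed as higher and 12.8% as lower. Those higher were 2 of 9 mitochondrial translation factors, 1 of 9 enzymes related to the synthetases and 9 of 13 mRNAs of the mitochondrial genome. So were 2 of 13 amino acid transporters and 1 of 15 genes of the amino acid response. Those lower were 3 of 13 transporters, 1 of 15 response genes and 1 of 5 elongation factors, EEF2.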

How the data were processed

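RNA-Seq of the abdominal aorta of 3 NC and 3 HFCF pigs was analysed. Per the labels and the methods, reads were trimmed with cutadapt 1.9, aligned with HISAT2 and quantified with StringTie, and the authors deposited FPKM for 30477 genes. No genome of the build named in the methods was used here, so no coordinates or sequences are given. A value of 0.0001 FPKM was read as 0. Relative depth came from the commonest ratio of low values between libraries.

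The synthetases were taken by symbol, and members and lists were chosen with earlier results of these data known. Values were compared as log2(FPKM + 0.1) in limma 3.58.1 (R 4.3.3) for the 15384 genes whose mean reached 0.1 FPKM, with diet as sole term, a mean-variance trend in eBayes and Benjamini-Hochberg adjustment. The p-values measure the spread between these 6 pigs. Members reported here that had an adjusted p under 0.05 were given with the values of each pig. Of the pathway lists, up to 4 genes that passed were named, some with their difference only. Other members were named for their role or after their values were seen. Marker lists of other cells gave 2 of 7 T cell, 1 of 5 B and plasma cell and 1 of 7 fibroblast genes that rose. Of all tested genes 22.8% rose and 6.16% fell. Of 7 endothelial, 6 adipocyte and 2 skeletal muscle genes 0 passed in limma, and the median differences of these 3 lists were 0.10, -0.99 and -0.29.

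In simulated data for this comparison (15384 genes, 200 changed), 0 of the genes changed by 1 on the log2 scale and 107 of those changed by 2 reached an adjusted p under 0.05. The data had far more called genes, 3505 that rose and 948 that fell, so the adjustment was stricter in the simulation. Its recovery therefore does not carry over to the genes called here. Alternatives covered the pseudocount (1 or 0.01), the filter (none, or a mean of 1 FPKM), 3 scalings (median-ratio, quantile, TPM), eBayes with no trend, a replicate block, and each pig left out in turn. Some genes are counted in the totals but not reported here.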

Additional observations from a re-analysis of the deposited data

How the results depend on the processing

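Over 15 alternatives, 407 of 508 differences of single synthetases kept their direction and their side of the threshold, 49 lost the call, 23 gained one and 29, in 11 genes, changed sign. None of the changed signs had an adjusted p under 0.05 in limma. Only a gene that was called at first can lose its call, so the 49 fall on the few called genes. Of the called genes reported here, SARS1 kept its call in 9 of 15 alternatives, VARS1 and RARS2 in 7 of 15, PARS2 in 5 of 15 and YARS2 in 4 of 14. The number of cytosolic enzymes that fell, 2 with the deposited values, was 11 with median-ratio scaling, 7 with TPM, 5 with quantile normalization, 1 with no filter, 0 with eBayes without a trend (3 at an unadjusted p under 0.05 in limma) and 1 with a replicate block. With 1 pig left out it ranged from 0 to 2, with 0 without any NC pig or the third HFCF pig (2 to 3 at an unadjusted p under 0.05) and 1 without the second HFCF pig. The number that rose ranged from 1 to 2, with 2 without the third NC pig. The number of mitochondrial enzymes that rose, 4 with the deposited values, was 1 with no filter, 1 with median-ratio scaling, 1 with TPM, 0 with quantile normalization (2 at an unadjusted p under 0.05) and 0 with the replicate block (4 unadjusted). With 1 pig left out it ranged from 0 to 3, with 0 without the first NC pig or the second HFCF pig (4 unadjusted in each), 1 without the second NC pig, and 2 without the third NC pig or the first HFCF pig. The number that fell was 1 under each of the 3 scalings. The cytosolic median relative to all genes, -0.53, was -0.39 with a pseudocount of 1, -0.21 with no filter and -0.32 with quantile normalization, and ranged from -0.65 to -0.49 with 1 pig left out. The mitochondrial one, 0.05, was 0.37 with no filter and ranged from -0.04 to 0.17 with 1 pig left out. With no filter the median of all genes was 0.00 instead of 0.32, while each enzyme kept its own difference. The causes of the other changes were not tested. With the 3 rows named by description, an alternative chosen after seeing the data, 5 mitochondrial enzymes rose. The added one is SARS2, which reached the filter only through the HFCF pigs. The pair shifts after quantile normalization were also added after seeing the data. Over all genes, 3505 rose and 948 fell with the deposited values, and these counts were 1932 and 584 with no filter, 2232 and 540 with the replicate block, 1961 and 438 without the first NC pig, 2035 and 1969 with median-ratio scaling, 1748 and 1782 with quantile normalization, and 2229 and 1527 with TPM.

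Signs changed under median-ratio scaling for RARS1 (-0.11), HARS1 (-0.22), FARSA (-0.31), LARS2 (-0.07), VARS2 (-0.20), WARS2 (-0.26) and TARS2 (-0.25). They changed with TPM for RARS1 (-0.01), HARS1 (-0.13), FARSA (-0.22), VARS2 (-0.11), WARS2 (-0.17) and TARS2 (-0.16). They changed with quantile normalization for HARS1 (-0.03), FARSA (-0.31), AARS2 (-0.13), EARS2 (-0.15), LARS2 (-0.30), VARS2 (-0.29), WARS2 (-0.41) and TARS2 (-0.50). With 1 pig left out, the difference ranged from -0.05 to 0.11 for FARSA, -0.23 to 0.83 for HARS2, -0.01 to 0.31 for VARS2, -0.07 to 0.23 for WARS2, -0.01 to 0.22 for TARS2 and -0.50 to 0.07 for NARS2.

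The labels give both groups the same replicate numbers, but nothing says that they pair pigs. The correlation of deviations between pigs with the same number was 0.021, -0.079 and -0.072, and no pig correlated best with its own number. FPKM carries no read totals, so no counting interval is given.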
